A study of Oncorhynchus mykiss with 24 samples.

Results

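The mRNAs described here are those that build and shape liver cells or take part in their division, as measured by 72 spots of a salmonid oligonucleotide array. They were selected on measured values, from the study's lists of mRNAs that differed between groups of rainbow trout. In those lists 55 of the spots stand under cell/tissue structure and development and 17 under cell cycle function, and 6 further spots of these categories, all described as sarcomeric or cardiac alpha actin, were set aside together with any lipocalin, lectin or N-acetylgalactosaminyltransferase. The 72 spots carry 56 descriptions and are a small part of the 43689 spots on the array that are not controls. Because measured differences between the groups chose the members, the group differences of single members are given as a description, with no test. Counts of members in a comparison past both a fold and a p threshold stand beside the number or share of all spots past them. The category names are broad. Beside cytoskeleton, adhesion and cell cycle mRNAs they take in 9 spots for secreted or growth-related proteins such as LECT2 and fibrinogen, 4 for proteasome subunits and 4 for transposases.

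Livers of 24 fish were compared, with 6 in each of 4 groups. D were domesticated trout of a strain kept for fast growth, W/D were first-generation hybrids of wild and domesticated parents, Wa were wild trout of Pennask Lake origin of the same age as D, and Ws were wild trout of that origin from the year before, older and matched to D in size. All groups were reared under the same conditions and fasted before sampling, according to the methods. The methods place the W/D cross in the same year as those of D and Wa. At sampling, D and Ws weighed more than W/D and Wa, as the methods also state. According to the methods, D, W/D and Wa each came from 1 cross, D and W/D having the same mother and W/D and Wa the same father, whereas Ws came from several crosses. In D, W/D and Wa a difference between strains therefore cannot be told apart from one between families. The RNA of each fish was labelled with Cy5 and hybridised against a Cy3-labelled pool of 6 Ws livers. Every value below is a log2 ratio of the fish to that pool. Dyes were not swapped, so a value of 0 need not be the level of the pool at every spot. For CAMK2D, for example, all Ws fish lay between -1.87 and -0.87. High and low below therefore compare groups within a spot. Each of 6 slides held 1 fish of every group in fixed positions of the slide. Position and group therefore cannot be told apart.

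The cytoskeleton of a cell consists of actin filaments, microtubules and intermediate filaments, and it gives hepatocytes their shape and the polarity that separates blood-facing from bile-facing membrane. Cadherins and plakoglobin join neighbouring cells, claudins seal the space between them, and collagens and thrombospondins lie in the matrix outside. Liver cells of adult vertebrates seldom divide, yet the organ grows with the body, and division needs cyclins, DNA replication factors, mitotic kinases and the spindle.

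Spots entered the fit if all 6 fish of at least 1 group had an unflagged Cy5 signal of 300 or more and every group had a value. Both held for 8679 spots and for 64 of the 72 members. Of these 64, 36 had a Cy5 signal above local background on all 24 arrays. Between 33.6% and 46.2% of all spots on an array lay above background. Correlations of whole profiles between D fish ran from 0.39 to 0.64. D fish 4 and 6, whose titles give the same fish code though other label text differs, had 0.61, near the top of that range. This value cannot show whether they were 1 fish, and both were kept as separate fish. Serum albumin, a defining product of hepatocytes, was above background on all arrays, and its level moved with the groups. Its mean log2 ratio was highest for D (1.99) and W/D (1.87), lower for Wa (0.94) and lowest for Ws (0.12). Every D fish (1.47 to 3.02) lay above every Ws fish (-0.51 to 0.64). Haemoglobin, a marker of red blood cells that the study had also listed, moved with the groups too. The median log2 ratio over 19 kept haemoglobin spots (of 35 listed) lay between 0.08 and 2.55 in D fish, between -0.23 and 0.70 in W/D fish, between -0.39 and 0.35 in Wa fish and between -1.17 and -0.21 in Ws fish. The part of either marker in the values below was not tested. In whole tissue, a change in the number of cells of a type and a change in the RNA per cell cannot be told apart.

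Called, in these counts, means a fold change of at least 2 with an adjusted p of at most 0.05 in limma's moderated test with Benjamini-Hochberg adjustment over the 8679 kept spots. In D relative to Wa, 31 of the 64 kept members were called, 17 higher and 14 lower, where 3.58% of all kept spots were called (2.00% higher and 1.58% lower). In D relative to Ws, 25 members were called, 13 higher and 12 lower, beside 3.45% of all spots (2.43% and 1.01%). The hybrids had 11 called members relative to Wa, 9 of them higher and 2 lower, beside 0.933% of all spots (0.634% and 0.300%). Relative to Ws they had 21, with 13 higher and 8 lower, beside 2.06% (1.39% and 0.668%). Between W/D and D, 7 members were called, 4 higher and 3 lower in W/D, beside 0.749% (0.392% and 0.357%). Between Wa and Ws there were 9, with 3 higher and 6 lower in Wa, beside 0.887% (0.507% and 0.380%). Nothing is read from these shares, since the same contrasts chose the members. The balance of higher and lower depended on the scaling in some comparisons. With each array centred on its median in place of loess, 15 of 33 called members were higher in D than in Wa. Under the same setting 16 of 22 were higher in the hybrids than in Ws, and 6 of 8 were higher in the hybrids than in D. In Wa relative to Ws it was 7 of 10. Of all kept spots, this setting called 355, 218, 69 and 96 in these comparisons, in that order. With the deposited ratios, 4 of 9 were higher in the hybrids than in D and 6 of 12 were higher in Wa than in Ws. Those ratios called 68 and 72 of all kept spots there. The counts of the last comparisons rested on single replicates, a replicate being the fish that carry the same number in the labels of the groups. Without replicate 2, 3, 5 or 6, the number of members called in Wa relative to Ws was 3, 15, 5 or 2. Without replicate 1 or 3 the number in W/D relative to D was 4.

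The size of the differences is described by their medians. The median absolute log2 difference of the kept members was 1.02 between D and Wa and 0.93 between D and Ws, where it was 0.26 in both cases over all kept spots. For the hybrids it was 0.58 against Wa, 0.75 against Ws and 0.51 against D, where all kept spots had 0.20, 0.23 and 0.20. Between the wild groups it was 0.53, where all kept spots had 0.23. The signed medians of the members lay between -0.06 and 0.27 over the 6 comparisons. In its widest comparison, 51 of the 64 members differed by at least 1 on the log2 scale. The study listed the members for a 2-fold difference in these comparisons, and the share of all kept spots past this limit was not computed. Nothing is therefore read from this number, nor from the numbers of members 2-fold apart given next. Those just inside this limit were histone H1.0 with 1.01 and IGFBP2 spot 1 with 1.03, and those just outside were the proteasome subunits PSMA5 with 0.96 and PSMA6 spot 2 with 0.95. Of the 32 members at least 2-fold apart between D and Wa, the mean of W/D lay on the Wa side of the midpoint for 14, on the D side for 12, beyond D for 3 and beyond Wa for 3. Of the 27 at least 2-fold apart between D and Ws, it lay on the Ws side for 7, on the D side for 16, beyond D for 3 and beyond Ws for 1. As D and a wild group were the extremes by choice in these counts, an intermediate place of W/D is favoured by the choice.

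**Figure D1:**
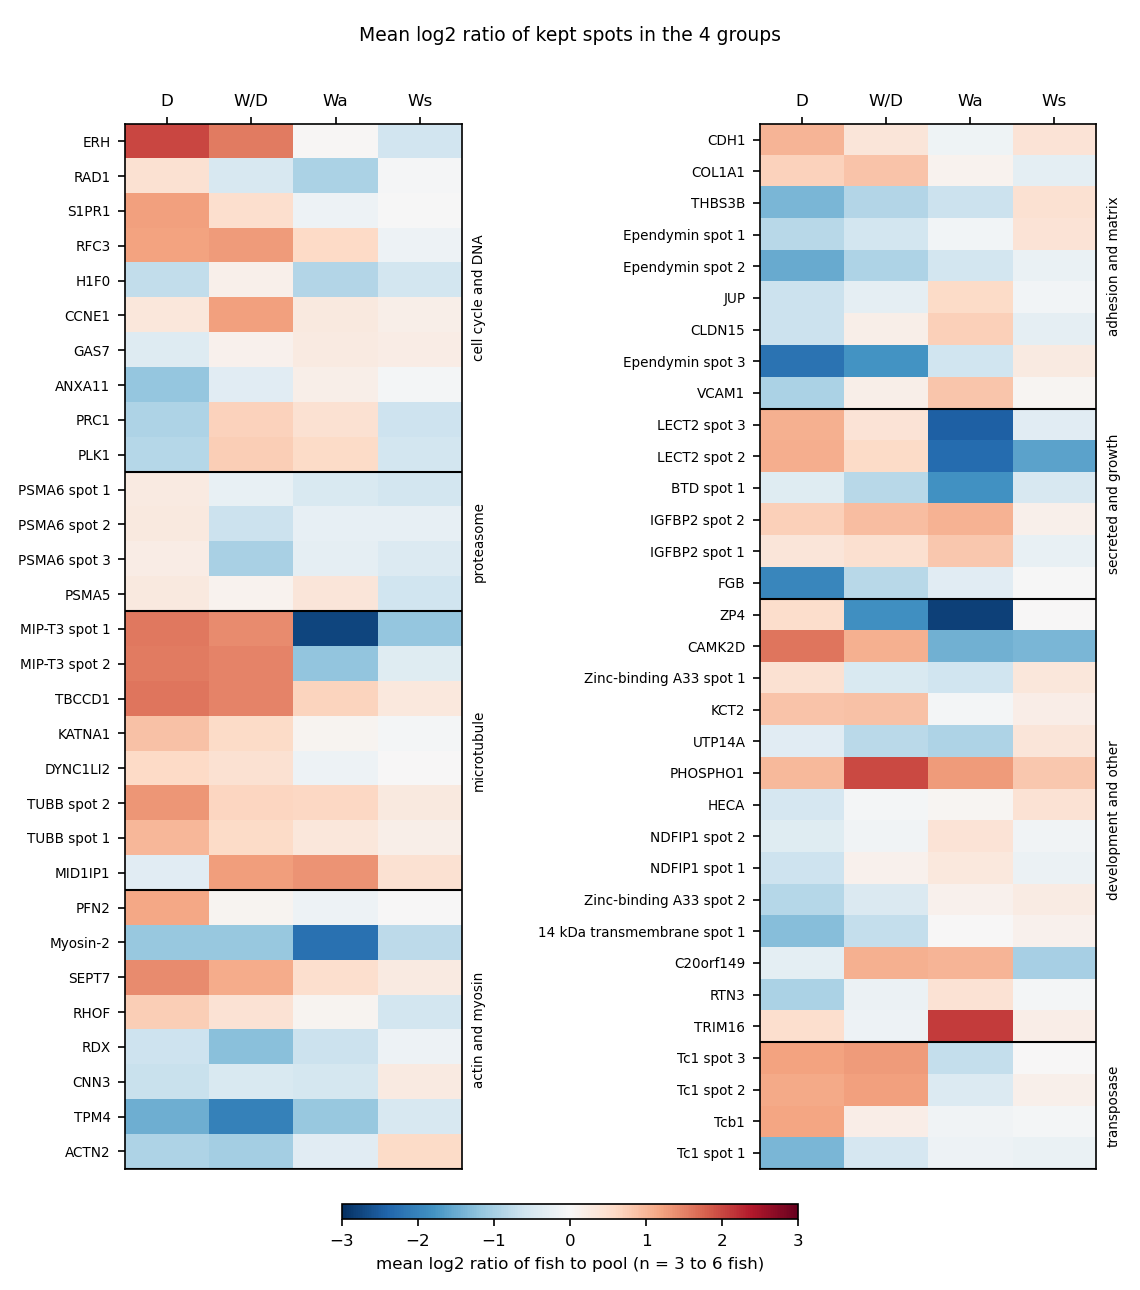
Mean log2 ratio of fish to pool (colour, scale from -3 to 3) for the kept spots reported here (rows, by role) in D, W/D, Wa and Ws (columns, 3 to 6 fish per mean). MIP-T3, CAMK2D and ERH are red in D and W/D and blue or pale in Wa and Ws, and ZP4, LECT2 and MIP-T3 spot 1 are dark blue in Wa.

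Among mRNAs of cell division, the mitotic regulators PLK1 and PRC1 were low in D and Ws and high in W/D and Wa. PLK1 encodes polo-like kinase 1, which drives entry into and passage through mitosis. Its log2 ratios were -1.55, -0.66 and -0.52 in D (lowest, median and highest fish), -0.94, 0.77 and 1.60 in W/D, -0.12, 0.49 and 1.28 in Wa, and -1.36, -0.41 and -0.19 in Ws. All D fish lay below all Wa fish, and all Wa fish above all Ws fish, while 1 W/D fish lay among the low values. The difference was -1.42 ± 0.32 (SE) in D relative to Wa. For the hybrids it was 1.58 ± 0.32 against D and 1.29 ± 0.32 against Ws. PLK1 was above background on 2 of 6 D arrays and 4 of 6 Ws arrays, so that its low levels are uncertain.

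PRC1 encodes a protein that bundles microtubules of the central spindle before the cell divides. It was not above background on any D array. Its log2 ratios were between -1.85 and -0.50 in D, between -0.10 and 1.54 in W/D, between -0.41 and 1.36 in Wa and between -1.09 and 0.22 in Ws. On the Cy5 scale, with the D signal as measured, PRC1 was 2.20-fold lower in D than in Wa and 2.48-fold higher in W/D than in D. The lowest signal above background did not exceed the D signal, so that it set no bound. These folds rest on D signals not above background and are open to dye bias. No D fish reached the range of W/D or Wa.

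Cyclin E1, which takes cells from G1 into S phase, was highest in the hybrids. Its log2 ratios were -0.39, 0.26 and 1.36 in D, 0.85, 1.22 and 1.77 in W/D, -0.34, 0.31 and 1.05 in Wa, and -0.63, 0.11 and 0.91 in Ws. The difference of W/D relative to Ws was 1.05 ± 0.28, and each other group overlapped with W/D. RFC3, a subunit of the clamp loader of DNA replication, was high in both groups with domesticated parents. It had 0.75, 1.15 and 1.80 in D, 0.67, 1.38 and 1.75 in W/D, -0.29, 0.48 and 1.73 in Wa, and -0.44, -0.09 and 0.18 in Ws. All D and all W/D fish lay above all Ws fish, by 1.35 ± 0.26 and 1.42 ± 0.26 on average.

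RAD1 belongs to a ring-shaped clamp that signals DNA damage. Its values in D were tightly grouped, at 0.33, 0.48 and 0.60, and they were -1.03, -0.42 and -0.10 in W/D, -1.83, -0.87 and -0.29 in Wa, and -0.75, -0.08 and 0.69 in Ws. D fish lay above all W/D and all Wa fish, and the difference of D relative to Wa was 1.42 ± 0.26. Histone H1.0, the linker histone of cells that have stopped dividing, was highest in W/D, where its mean was 0.14 ± 0.32 (SD) against -0.74 ± 0.36 in D, -0.87 ± 0.45 in Wa and -0.56 ± 0.42 in Ws. The widest difference was 1.01 ± 0.23, in W/D relative to Wa, with an overlap between these groups.

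ERH, the homologue of a Drosophila factor named enhancer of rudimentary, had the widest difference of the cell cycle category. It reached 1.21, 2.01 and 2.63 in D and 1.05, 1.46 and 2.35 in W/D, against -0.59, 0.17 and 0.49 in Wa and -0.74, -0.57 and -0.39 in Ws. Neither group with domesticated parents overlapped with a wild group. D exceeded Wa by 1.97 ± 0.25 and Ws by 2.58 ± 0.25, and W/D exceeded Wa by 1.53 ± 0.25 and Ws by 2.14 ± 0.25. Only 3 of 6 arrays of Wa and 1 of 6 of Ws were above background for ERH, so that its low levels are uncertain. With the deposited ratios, D exceeded Ws by 1.59, and W/D exceeded Wa by 0.95 and Ws by 1.02.

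The signalling members of the cell cycle category went different ways. S1PR1, a receptor for sphingosine 1-phosphate that is known from blood vessel formation, had 0.49, 1.27 and 2.10 in D, 0.06, 0.36 and 1.42 in W/D, -0.77, -0.04 and 0.21 in Wa, and -0.85, 0.07 and 0.79 in Ws. D exceeded Wa without overlap, by 1.38 ± 0.28. Annexin A11, a calcium-dependent membrane-binding protein, was low in D alone, at -1.42, -1.26 and -0.54 in D, -0.53, -0.42 and -0.07 in W/D, -0.08, 0.06 and 0.64 in Wa, and -0.42, -0.13 and 0.58 in Ws. It was lower in every D fish than in any fish of the other groups, and the differences from Wa and Ws were -1.33 ± 0.19 and -1.09 ± 0.19. GAS7, a growth arrest-specific protein, differed little, with group means of -0.38 in D, 0.13 in W/D and 0.27 in Wa, with 0.22 in Ws. Reticulon-3, a protein of the endoplasmic reticulum, had -0.96 ± 0.54 (SD) in D, -0.17 ± 0.60 in W/D and 0.43 ± 0.46 in Wa, with -0.06 ± 0.37 in Ws, with D and Wa apart and 3 of 6 D arrays above background.

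**Figure D2:**
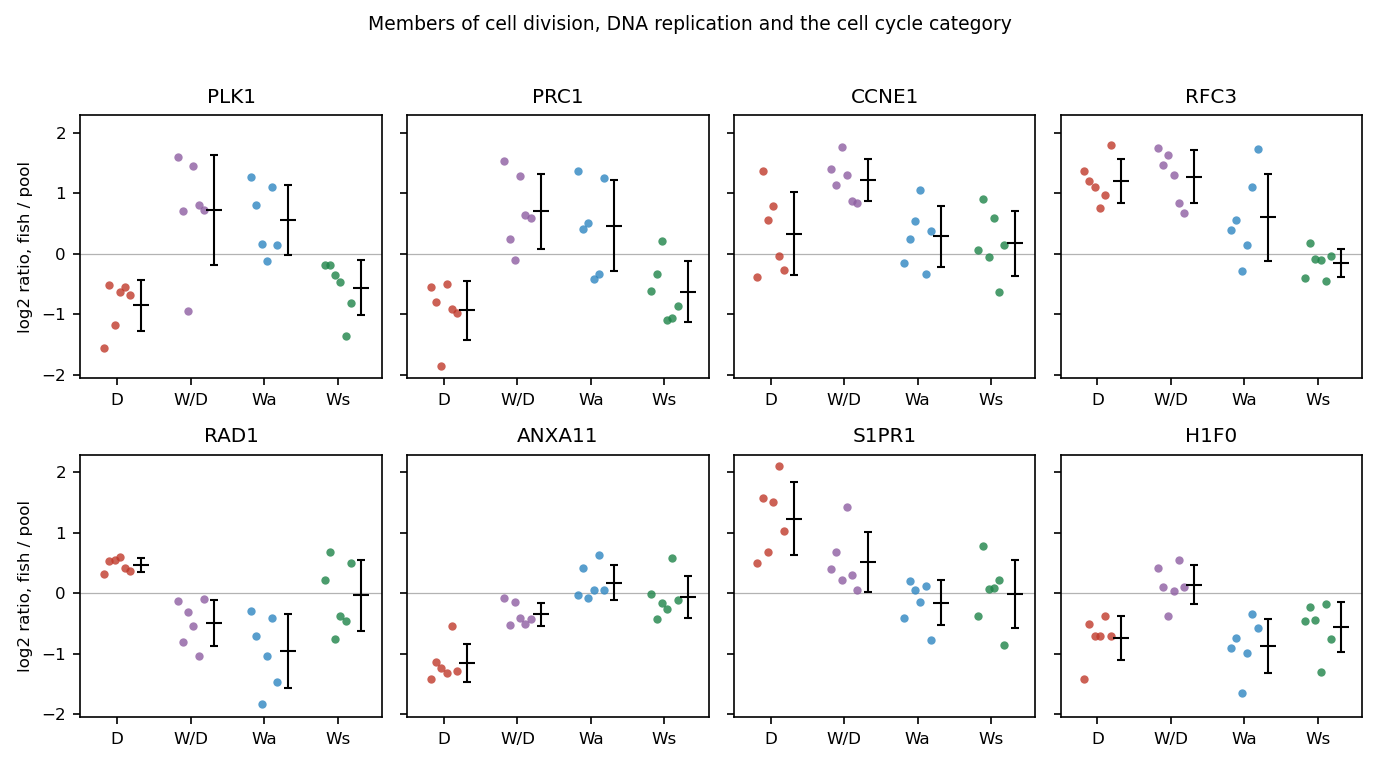
Log2 ratio of fish to pool (vertical axis) for 8 mRNAs of cell division, DNA replication or the cell cycle category, with 1 point per fish and the mean and SD beside the points of D, W/D, Wa and Ws. PLK1 and PRC1 are low in D and Ws, cyclin E1 is high in W/D, and annexin A11 is low in D; PRC1 was not above background on any D array.

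The cell cycle category holds 4 spots for subunits of the alpha ring of the 20S proteasome, the core particle that degrades ubiquitinated proteins, cyclins among them. The 3 PSMA6 spots had means of 0.28, 0.30 and 0.22 in D, -0.22, -0.65 and -0.98 in W/D, -0.47, -0.26 and -0.27 in Wa, and -0.54, -0.25 and -0.40 in Ws (spots 1, 2 and 3). All 3 spots were highest in D. The difference of W/D relative to D was -0.50 ± 0.22, -0.95 ± 0.21 and -1.20 ± 0.22, and only spot 3 was free of overlap. PSMA5 was lowest in Ws, with -0.59 ± 0.45 (SD) against 0.29 ± 0.35 in D, 0.10 ± 0.21 in W/D and 0.36 ± 0.32 in Wa, a difference under 2-fold throughout.

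Among microtubule mRNAs, MIP-T3 showed the widest difference of all members. Both spots are described only by the entry of a protein domain, named after the microtubule-binding protein MIP-T3, and not by a gene. Whether they measure the mRNA of that protein was not tested. MIP-T3 itself binds microtubules and takes part in transport along cilia. Spot 1 had 0.72, 1.61 and 2.44 in D, 0.56, 1.54 and 2.06 in W/D (4 fish), -3.01, -2.77 and -2.42 in Wa (5 fish), and -3.12, -1.05 and 0.64 in Ws. Thus D exceeded Wa by 4.35 ± 0.41, which is 20.3-fold, and W/D exceeded Wa by 4.19 ± 0.45, or 18.2-fold. Neither D nor W/D overlapped with Wa, whereas the spread of Ws covered most of the distance.

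Spot 2 of MIP-T3 followed the same order with a smaller range. It had 0.57, 1.59 and 2.35 in D, 0.26, 1.56 and 2.73 in W/D, -1.57, -1.33 and -0.60 in Wa, and -1.39, -0.30 and 0.62 in Ws. D exceeded Wa by 2.74 ± 0.34 and Ws by 1.91 ± 0.34. With the deposited ratios, D exceeded Wa by 1.77 and W/D exceeded it by 1.61. This spot was above background on 3 of 6 arrays each in Wa and in Ws, and on all arrays in D and W/D.

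Most other microtubule spots also had their highest mean in D. Both tubulin beta spots, which stand for the building block of microtubules, were highest in D. Spot 1 had means of 0.99 ± 0.32 (SD) in D, 0.58 ± 0.47 in W/D and 0.34 ± 0.37 in Wa, with 0.17 ± 0.28 in Ws, and spot 2 had 1.32 ± 0.48 in D, 0.64 ± 0.33 in W/D and 0.62 ± 0.45 in Wa, with 0.28 ± 0.62 in Ws. The widest difference was that of spot 2 in D relative to Ws, at 1.03 ± 0.26. TBCCD1, a relative of a tubulin folding cofactor, had 0.96, 1.59 and 2.13 in D, 1.28, 1.40 and 1.88 in W/D, -0.05, 0.65 and 1.12 in Wa, and -0.10, 0.26 and 1.10 in Ws. W/D lay above both wild groups without overlap. KATNA1, which severs microtubules, and DYNC1LI2, a light intermediate chain of the motor dynein, stayed under 2-fold in every comparison, with means of 0.87 and 0.59 in D, 0.57 and 0.45 in W/D, 0.09 and -0.16 in Wa, and -0.06 and 0.02 in Ws.

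MID1IP1 ran against the other microtubule mRNAs. Its protein stabilises microtubules and in mammalian liver also activates acetyl-CoA carboxylase, an enzyme of fatty acid synthesis. It had -0.77, -0.36 and -0.02 in D, 0.65, 1.25 and 2.07 in W/D, 0.83, 1.40 and 1.65 in Wa, and -0.25, 0.40 and 1.10 in Ws. All D fish lay below all W/D and all Wa fish. The difference was -1.68 ± 0.23 in D relative to Wa and 1.60 ± 0.23 in W/D relative to D. MID1IP1 was above background on 4 of 6 D arrays, so that its low level there is uncertain.

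**Figure D3:**
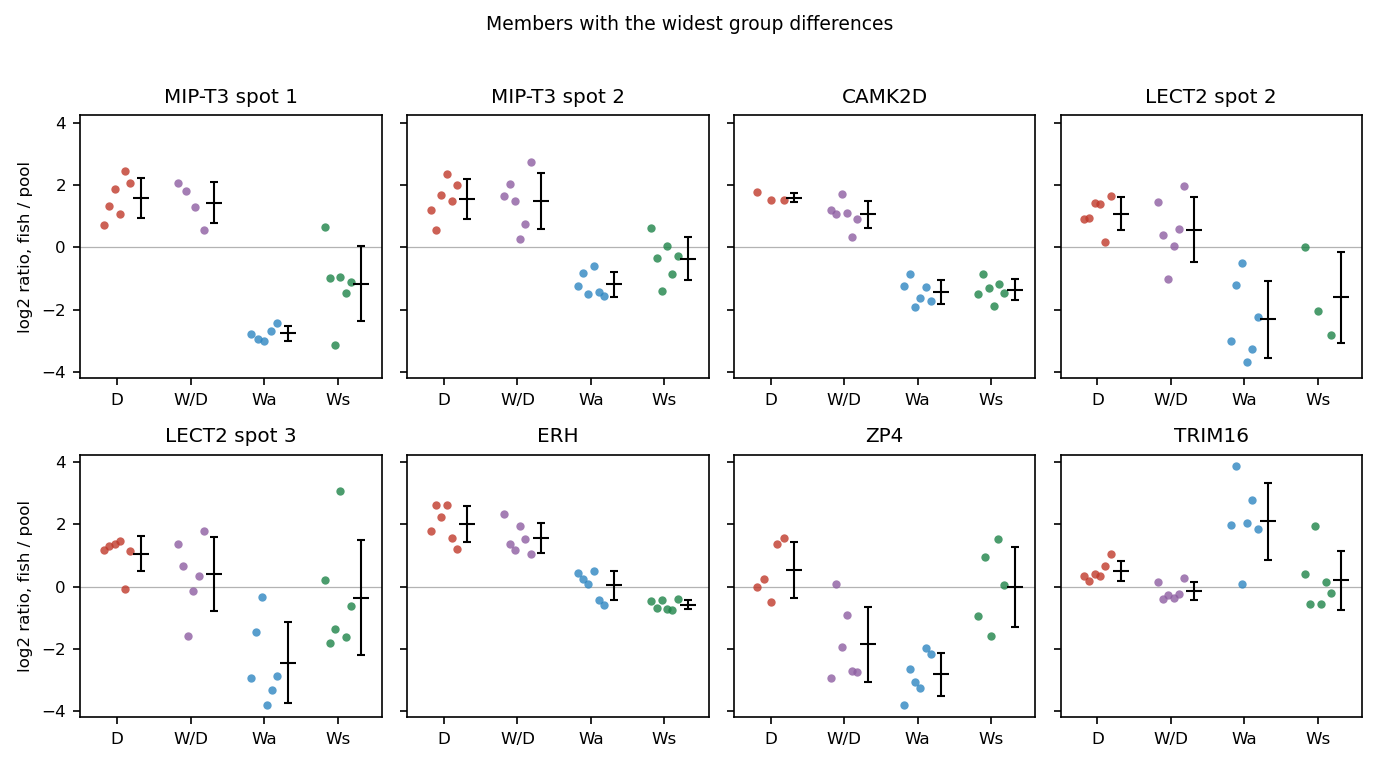
Log2 ratio of fish to pool (vertical axis) for the members with the widest group differences, with 1 point per fish and the mean and SD beside the points of D, W/D, Wa and Ws. All D fish lie above all Wa fish for both MIP-T3 spots, CAMK2D, both LECT2 spots, ERH and ZP4; TRIM16 runs the other way, with the Wa mean at 2.10 and wide spread.

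The mRNAs of actin and myosin did not move as a unit. Profilin-2, which delivers actin monomers to growing filaments, had 0.75, 1.19 and 1.51 in D, -0.25, -0.08 and 0.69 in W/D, -1.13, -0.09 and 0.58 in Wa, and -0.54, 0.09 and 0.52 in Ws. Every D fish stood above every fish of the other groups. D differed by 1.32 ± 0.25 from Wa and by 1.15 ± 0.25 from Ws, and W/D differed by -1.09 ± 0.25 from D. RhoF, a small GTPase of filopodia, had means of 0.74 in D, 0.43 in W/D and 0.09 in Wa, with -0.55 in Ws, and D exceeded Ws by 1.29 ± 0.26. Septin-7, a filament protein needed at the cleavage furrow, had 1.43 ± 0.47 (SD) in D, 1.10 ± 0.48 in W/D and 0.50 ± 0.40 in Wa, with 0.27 ± 0.57 in Ws.

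Several other actin-binding proteins had their highest mean in Ws. Alpha-actinin-2, which cross-links actin filaments and in muscle anchors them at the Z-disc, had -1.53, -0.95 and -0.22 in D, -1.72, -1.16 and 0.09 in W/D, -1.63, 0.03 and 0.52 in Wa, and 0.13, 0.60 and 0.80 in Ws. D and W/D lay below Ws without overlap, by -1.50 ± 0.33 and -1.59 ± 0.33. It was above background on 3 of 6 D arrays and 1 of 6 W/D arrays. Tropomyosin-4, which lies along actin filaments, had means of -1.47 in D, -2.03 in W/D and -1.14 in Wa, with -0.48 in Ws, and radixin, which ties actin to the membrane, had -0.62, -1.25, -0.65 and -0.16 in the same groups. The widest difference of both was in W/D relative to Ws, at -1.55 ± 0.26 for tropomyosin-4 and -1.08 ± 0.24 for radixin. Calponin-3 was near -0.66, -0.46 and -0.53 in D, W/D and Wa against 0.26 in Ws, less than 2-fold in every comparison. A non-muscle myosin-2 heavy chain was lowest in Wa, with -1.13 ± 0.58 (SD) in D, -1.15 ± 0.56 in W/D and -2.23 ± 0.23 in Wa, with -0.79 ± 0.90 in Ws.

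Muscle-type actin moved with the groups as well. Over the 6 sarcomeric or cardiac alpha actin spots that the choice of members set aside, the median log2 ratio of a fish lay between -0.98 and -0.11 in D, between -3.11 and -0.83 in W/D, between -2.13 and -1.35 in Wa and between -0.42 and 1.01 in Ws. Among these 6 spots, 1 ran differently, with means of -0.71 in D, -0.71 in W/D and 0.39 in Wa, with 0.09 in Ws. The part of muscle-type actin in the levels of the contractile members was not tested. In W/D, where 5 of the actin spots had means between -2.12 and -1.87, alpha-actinin-2 and tropomyosin-4 had means of -1.02 and -2.03. Calponin-3 and non-muscle myosin-2 had -0.46 and -1.15 there. In Wa, where those 5 spots had means between -1.87 and -1.52, the same mRNAs had -0.34, -1.14, -0.53 and -2.23 in that order. Alpha-actinin-2 ranged from -1.63 to 0.52 over the Wa fish.

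Adhesion mRNAs did not all move in the same direction. E-cadherin, which holds epithelial cells together, had 0.85, 0.99 and 1.37 in D, -0.18, 0.35 and 0.75 in W/D, -0.24, -0.12 and -0.02 in Wa, and -0.22, 0.47 and 1.01 in Ws. D lay above W/D and Wa without overlap, and exceeded Wa by 1.15 ± 0.20. Junction plakoglobin, which binds the inner end of cadherins, went the other way, with -0.98, -0.86 and -0.04 in D, -0.71, -0.17 and 0.35 in W/D, -0.32, 0.68 and 1.01 in Wa, and -0.28, -0.08 and 0.21 in Ws. Its difference in D relative to Wa was -1.22 ± 0.23, with 1 Wa fish inside the range of D.

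Claudin-15, a tight junction protein, and VCAM1, an adhesion molecule of endothelium that leukocytes bind, were also low in D. Claudin-15 had means of -0.65 in D, 0.17 in W/D and 0.72 in Wa, with -0.27 in Ws, and D lay below Wa by -1.37 ± 0.30 without overlap. It had a value in 5 D fish and was above background on 4 of 6 D arrays. VCAM1 had -1.29, -0.91 and -0.72 in D, -0.16, 0.11 and 0.67 in W/D, 0.22, 0.75 and 1.53 in Wa, and -1.08, 0.24 and 0.74 in Ws. D was below W/D and Wa without overlap, by -1.78 ± 0.26 relative to Wa, and 3 of 6 D arrays were above background. The median of 2 immunoglobulin mu spots, markers of B cells, had a similar order of groups, with fish between -0.92 and 0.28 in D, between -0.89 and 1.05 in W/D, between 0.68 and 2.14 in Wa and between 0.02 and 0.99 in Ws. The part of blood cells in the VCAM1 values was not tested.

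In the matrix, thrombospondin-3b had means of -1.38 ± 0.41 (SD) in D, -0.88 ± 0.20 in W/D and -0.64 ± 0.66 in Wa, with 0.46 ± 0.44 in Ws, and relative to Ws the differences of D, W/D and Wa were -1.83 ± 0.26, -1.33 ± 0.27 and -1.10 ± 0.26. Thrombospondin-3b was above background on 4 of 6 D arrays. Collagen alpha-1(I), the chain of type I collagen and a marker of stellate cells and fibroblasts, had 0.68 in D, 0.85 in W/D and 0.10 in Wa, with -0.30 in Ws, and the widest difference was that of W/D relative to Ws, at 1.15 ± 0.24. The 3 ependymin spots stand for a secreted glycoprotein first known from fish brain. Their means were -0.83, -1.50 and -2.22 in D, -0.55, -0.93 and -1.79 in W/D, -0.07, -0.54 and -0.59 in Wa, and 0.41, -0.19 and 0.26 in Ws (spots 1, 2 and 3). In each spot the order was D, W/D, Wa and Ws from low to high. Relative to Ws, D was lower by -1.24 ± 0.31, -1.31 ± 0.28 and -2.49 ± 0.48, without overlap in any spot. In D the spots were above background on 3, 3 and 4 of 6 arrays, and spot 3 had a value in 4 D fish and 5 Ws fish, so that the low levels are uncertain.

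The secreted members include the second widest differences. LECT2, a chemotactic protein that hepatocytes release, was low in Wa. Spot 2 had 0.17, 1.16 and 1.66 in D, -1.01, 0.49 and 1.96 in W/D, -3.67, -2.62 and -0.50 in Wa, and -2.80, -2.03 and 0.01 in Ws (3 fish). Spot 3 had -0.06, 1.25 and 1.45 in D, -1.59, 0.50 and 1.78 in W/D, -3.78, -2.89 and -0.33 in Wa, and -1.79, -0.99 and 3.08 in Ws. All D fish exceeded all Wa fish in both spots, by 3.39 ± 0.50 and 3.51 ± 0.63 on average, whereas the ranges of W/D and Ws were wide. In Wa, spot 2 was above background on 4 of 6 arrays and spot 3 on all 6. In Ws, 1 fish with 3.08 stood above every D fish in spot 3, and the difference of D relative to Ws was 2.69 ± 0.61 in spot 2 and 1.41 ± 0.63 in spot 3. Spot 2 was set to missing in the other Ws fish. Its mean Cy5 signal over all Ws arrays was 4216, against 4785 in D, so that its difference from Ws is uncertain.

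Biotinidase, which frees biotin for reuse, had in spot 1 means of -0.36 ± 0.17 (SD) in D, -0.83 ± 0.54 in W/D and -1.81 ± 0.98 in Wa, with -0.48 ± 0.60 in Ws. Every D fish lay above every Wa fish, by 1.45 ± 0.33 on average. Fibrinogen beta, a clotting protein of the liver, had -2.93, -2.28 and -0.49 in D (5 fish), -2.34, -0.59 and -0.27 in W/D, -0.66, -0.44 and 0.16 in Wa (4 fish), and -0.29, -0.09 and 0.36 in Ws (5 fish), and D was lower than Ws by -1.94 ± 0.37. IGFBP2, a binding protein of insulin-like growth factors in plasma, was lowest in Ws in both spots. Spot 1 had 0.35 in D, 0.49 in W/D and 0.80 in Wa, with -0.23 in Ws, and spot 2 had 0.72 in D, 0.93 in W/D and 1.04 in Wa, with 0.14 in Ws. The difference of Wa relative to Ws in spot 1 was 1.03 ± 0.21.

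Members with a part in development or of other function included further wide differences. ZP4 encodes a protein of the egg envelope, which in trout is made in the liver. It had -0.50, 0.24 and 1.56 in D (5 fish), -2.91, -2.31 and 0.10 in W/D, -3.81, -2.84 and -1.95 in Wa, and -1.58, 0.05 and 1.52 in Ws (5 fish). All Wa fish lay below all D and all Ws fish, with 3.34 ± 0.52 for D relative to Wa and -2.81 ± 0.52 for Wa relative to Ws. W/D lay with Wa except for 2 fish, and differed from D by -2.37 ± 0.52. CAMK2D, the delta chain of calcium/calmodulin-dependent kinase II, split the fish by domesticated parentage. It had 1.51, 1.51 and 1.77 in the 3 D fish with a value and 0.35, 1.10 and 1.70 in W/D, against -1.93, -1.46 and -0.86 in Wa and -1.87, -1.39 and -0.87 in Ws. D exceeded Wa by 3.04 ± 0.27 and Ws by 2.96 ± 0.27, and W/D exceeded them by 2.50 ± 0.22 and 2.42 ± 0.22, in each case without overlap.

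TRIM16, a tripartite motif protein, was high in Wa, at 0.08, 2.01 and 3.86, against 0.19, 0.39 and 1.05 in D, -0.40, -0.26 and 0.27 in W/D, and -0.54, -0.02 and 1.96 in Ws. Wa overlapped with every other group, and its lowest fish lay below the highest fish of each. A spot described as a homologue of C20orf149 had means of -0.29 ± 0.84 (SD) in D, 1.08 ± 0.90 in W/D and 1.01 ± 0.84 in Wa, with -0.99 ± 1.09 in Ws, and both W/D and Wa exceeded Ws, by 2.07 ± 0.45 and 2.00 ± 0.45. That spot was above background on 4 of 6 D arrays. PHOSPHO1, a phosphatase of bone mineralisation, was highest in W/D, with a mean of 1.97 ± 0.68 (SD) against 0.98 ± 0.33 in D, 1.29 ± 0.46 in Wa and 0.81 ± 0.57 in Ws. UTP14A, which processes ribosomal RNA, had -0.33 in D, -0.80 in W/D and -0.91 in Wa, with 0.36 in Ws, and W/D and Wa lay below Ws without overlap. NDFIP1, an adaptor of ubiquitin ligases, was lowest in D in both spots, with -0.62 and -0.37 in D, 0.12 and -0.11 in W/D, 0.32 and 0.42 in Wa and -0.18 and -0.10 in Ws, and HECA and KCT2 likewise differed by less than 2-fold, with means between -0.51 and 0.43 for HECA and between -0.05 and 0.87 for KCT2.

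Spots that share a name did not always share a pattern. There are 3 spots described as Tc1 transposase, the enzyme of a DNA transposon that is abundant in salmonid genomes. Spots 2 and 3 were high in D and W/D, with medians of 1.54 and 1.46 in D, 1.55 and 1.80 in W/D, -0.37 and -0.63 in Wa, and 0.03 and 0.02 in Ws. Spot 1 was low in D instead, at -2.19, -1.36 and -0.76 in D, -0.75, -0.54 and -0.09 in W/D, -0.31, -0.18 and 0.03 in Wa, and -0.41, -0.19 and 0.08 in Ws. The difference of D relative to Wa was -1.21 ± 0.20 in spot 1, 1.55 ± 0.38 in spot 2 and 1.92 ± 0.41 in spot 3. A spot for the related Tcb1 transposase had 1.19 ± 0.98 (SD) in D, 0.19 ± 0.64 in W/D and -0.10 ± 0.29 in Wa, with -0.06 ± 0.54 in Ws, so that the hybrids lay with the wild fish there.

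The 2 kept spots of zinc-binding protein A33 also ran apart. Spot 1 had 0.07, 0.54 and 0.76 in D, -0.57, -0.49 and -0.33 in W/D, -1.18, -0.85 and 0.50 in Wa, and -0.43, 0.40 and 0.88 in Ws, and spot 2 had -1.45, -1.08 and 0.32 in D, -0.63, -0.48 and -0.15 in W/D, -0.76, 0.22 and 1.16 in Wa, and 0.06, 0.16 and 0.79 in Ws. D relative to Wa was 1.07 ± 0.23 in spot 1 and -0.98 ± 0.27 in spot 2. A 14 kDa transmembrane protein had 1 kept spot, which was lower in D and W/D, with means of -1.27 in D, -0.70 in W/D and 0.02 in Wa, with 0.13 in Ws. Its other spot ran the opposite way, as given below among the spots that were not kept.

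**Figure D4:**
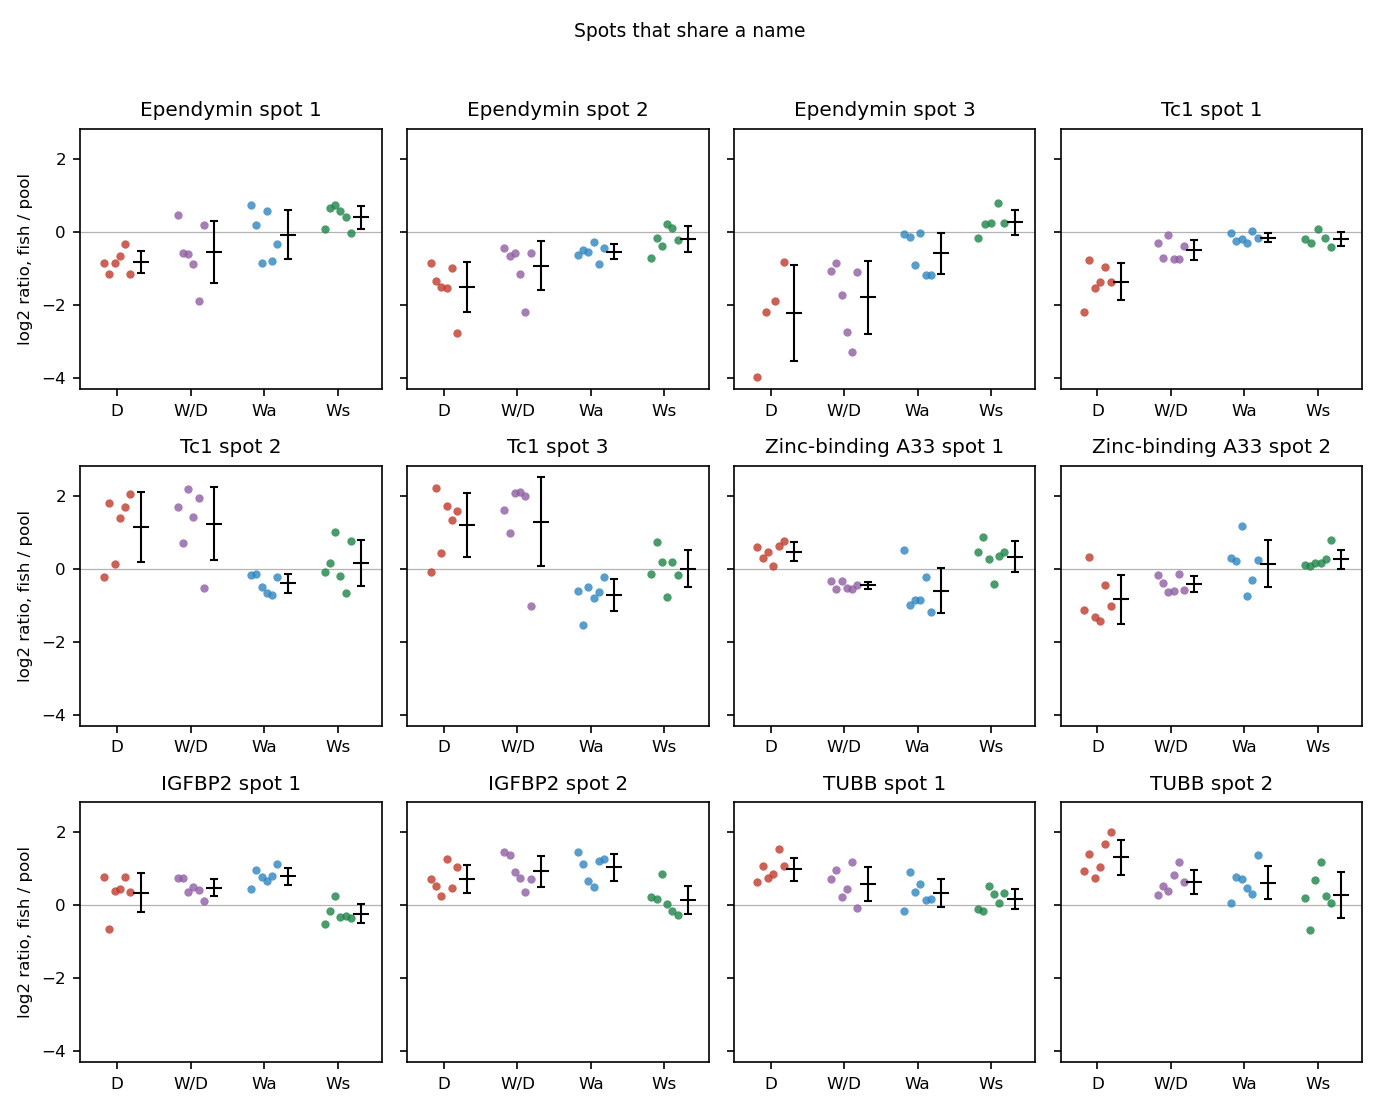
Log2 ratio of fish to pool (vertical axis) for spots that share a name, with 1 point per fish and the mean and SD beside the points of D, W/D, Wa and Ws. All 3 ependymin spots have their lowest mean in D and their highest in Ws, Tc1 spots 2 and 3 are high in D and W/D where spot 1 is low in D, and the zinc-binding A33 spots differ in which groups are low.

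Whether fish that were high for one member were also high for another is a separate question from the differences between groups that chose the members. The size of the spread within groups had a part in that choice, through the analysis of variance behind the lists, whereas the deviations of 1 spot were not set against those of another. Deviations from the group mean were correlated for 41 pairs over all fish with both values, by a two-sided permutation test with 100000 permutations of fish within groups, adjusted over the 41 pairs. Both values of a pair come from the same array and share its quality. Among 15 pairs of spots with the same description, 14 had r above 0, the median r was 0.46, and 4 pairs passed at an adjusted p of 0.05, against 7 at an unadjusted p under 0.05.

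The LECT2 pair was the closest. Over 21 fish, spots 2 and 3 had r = 0.95 and rho = 0.93, each with an adjusted permutation p of 0.00041, and r = 0.93 (permutation p = 2e-05) without the 2 fish farthest from the median of spot 2. Within D, W/D and Wa it was 0.82, 0.98 and 0.98. The unadjusted p of 1e-05 is the smallest that the permutations can give. Ependymin spots 1 and 3 had r = 0.70 (adjusted permutation p = 0.00471) and rho = 0.77 (adjusted permutation p = 0.00676), and r = 0.59 without the 2 farthest fish (permutation p = 0.00347). Ependymin spots 1 and 2 had r = 0.60 (adjusted permutation p = 0.0148) and rho = 0.51 (adjusted permutation p = 0.0954), with r = 0.37 without the 2 farthest fish (permutation p = 0.0323). Both ependymin results rested on replicate 5, without which r was 0.57 and 0.30 with adjusted permutation p of 0.0962 and 0.355. Neither passed with the deposited ratios, where r was 0.42 and 0.45 with adjusted permutation p of 0.175 and 0.143. Spots 1 and 2 also lost the call without replicate 4, with r = 0.59 (adjusted permutation p = 0.0887). The same held with the replicate means removed as a block, with r = 0.59 (adjusted permutation p = 0.137).

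Tc1 spots 2 and 3 had r = 0.77 (adjusted permutation p = 0.0148) and rho = 0.61 (adjusted permutation p = 0.0909). Without the 2 farthest fish r was 0.49 (permutation p = 0.047). The relation lay in D and W/D, where r was 0.92 and 0.95, against -0.24 in Wa and 0.14 in Ws, and the difference between groups was not tested. It missed the threshold without replicate 1, 2, 3 or 6, with r between 0.67 and 0.83 and adjusted permutation p between 0.0543 and 0.105. Among pairs that did not pass were the 2 A33 spots, with r = -0.02 and rho = -0.07 (adjusted permutation p of 0.952 and 0.954), the 2 MIP-T3 spots, with r = 0.67 (adjusted permutation p = 0.0538), the tubulin beta spots, with r = 0.48 (adjusted permutation p = 0.119), and the 3 PSMA6 pairs, with r between 0.28 and 0.33. The MIP-T3 spots passed under 4 of 12 alternatives, which were no background correction, median centring, the deposited ratios and the flag disregarded, with adjusted permutation p between 0.0189 and 0.0453. The tubulin beta spots passed with no background correction, with median centring, with the deposited ratios and without replicate 6, with adjusted permutation p between 0.00765 and 0.041. With the replicate block, PSMA6 spots 2 and 3 passed, with r = 0.70 (adjusted permutation p = 0.0299).

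None of 26 pairs of different mRNAs of related function passed at an adjusted permutation p of 0.05, and 1 had an unadjusted p under 0.05. That pair was PLK1 and PRC1, with r = 0.51 and rho = 0.49 (adjusted permutation p of 0.13 and 0.155), and r = 0.37 without the 2 farthest fish. The other 9 pairs among PLK1, PRC1, cyclin E1, RFC3 and RAD1 had r between -0.09 and 0.33. The 6 pairs among alpha-actinin-2, tropomyosin-4, calponin-3 and non-muscle myosin-2 had r between -0.25 and 0.25, and the 10 pairs among E-cadherin, plakoglobin, claudin-15, VCAM1 and radixin had r between -0.02 and 0.34. A pair of E-cadherin and plakoglobin, partners in the adherens junction, had r = 0.34 (adjusted permutation p = 0.296). Values that miss the threshold do not show that such mRNAs vary independently.

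**Figure D5:**
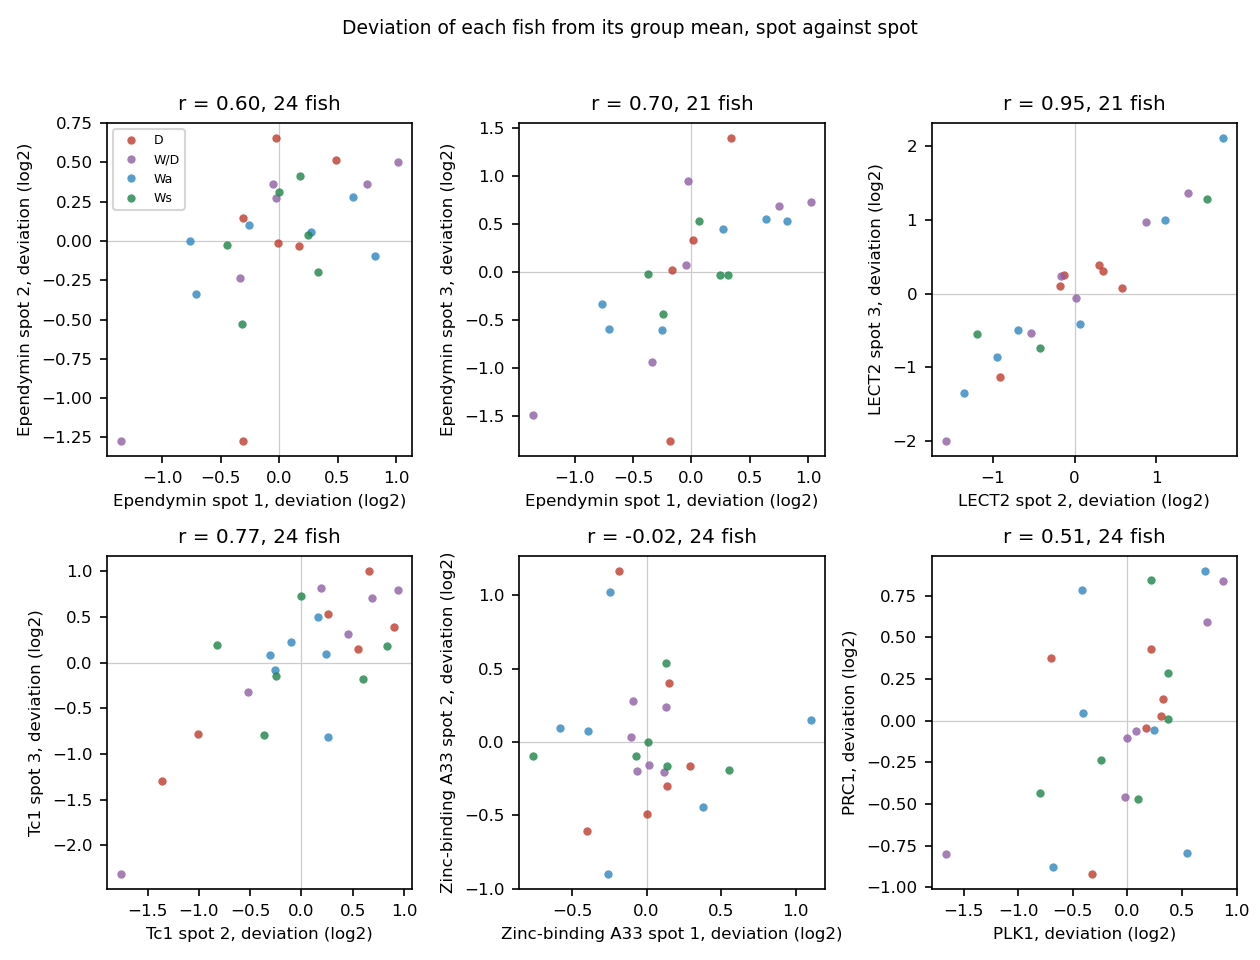
Deviation of each fish from its group mean on the log2 scale, 1 spot against another, with 1 point per fish coloured by D, W/D, Wa and Ws. The LECT2 points lie close to a line, the ependymin and Tc1 points spread along one with a few fish at the ends, and the zinc-binding A33 points show no slope.

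The spread between fish was much the same in the 4 groups. The median SD over the kept members was 0.44 in D, 0.45 in W/D and 0.45 in Wa, with 0.43 in Ws, against 0.38, 0.39, 0.38 and 0.38 over all kept spots. The lowest SD of a member was between 0.10 and 0.12 in each group. The highest belonged to ependymin spot 3 in D (1.31), a Tc1 spot in W/D (1.21) and LECT2 in Wa (1.30) and Ws (1.84).

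The remaining 8 members were not kept, all of them bright spots that carried the quality flag on 7 to 23 of the 24 arrays and were above background in every group. Their values are given with the flag disregarded. Myosin light chain kinase, which activates myosin, had means of 1.16 in D, 1.05 in W/D and -1.24 in Wa, with -0.02 in Ws, with D relative to Wa at 2.40 ± 0.39. LECT2 spot 1 followed the other LECT2 spots, with 1.62, 0.71, -2.10 and -0.24 in D, W/D, Wa and Ws. The second biotinidase spot, saturated on 10 arrays, had 0.14 in D, -0.44 in W/D and -1.87 in Wa, with -0.54 in Ws, levels that saturation leaves uncertain. The second spot of the 14 kDa transmembrane protein had 1.15 in D, 0.56 in W/D and -0.32 in Wa, with -0.06 in Ws, opposite to the kept spot. The third A33 spot had -0.19, -0.56, -1.57 and -0.40 in D, W/D, Wa and Ws. FAM82B, a regulator of microtubule dynamics, had 1.60, 1.19, 0.80 and -0.01 in these groups, and C1QTNF3, a secreted relative of complement C1q, had 0.70, 0.97, -0.17 and 0.35. Cytoplasmic actin 1, with the flag on 18 arrays and saturation on 4, had 0.77, 0.40, 0.00 and 0.38, levels that saturation leaves uncertain as well.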

How the data were processed

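Liver RNA of 24 trout was measured on 2-colour arrays, 1 array per fish. The authors deposited scanner intensities (mean signal and local background of Cy3 and Cy5), unnormalised, and log2 ratios processed by them. The log2 ratios correlated with the rebuilt ones at 0.858 to 0.926 and served as an alternative.

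Spots with a quality flag of 3 were set to missing. Of 17157 such spots, 60.1% had background contamination and 10.7% saturation in the authors' columns. The meaning of the flag is not given in the sources used here. Of 45220 spots, 1531 were controls. Background was corrected by normexp (offset 50) and arrays were normalised by loess in limma 3.58.1 (R 4.3.3). Spots with a Cy5 signal of at least 300 and no flag on all fish of at least 1 group were kept where every group had a value. Above background means over local background by 2 of its standard deviations. The 4 groups were fitted together (lmFit, eBayes), and calls needed a 2-fold change and an adjusted p not above 0.05. Scripts were tested on simulated data. Arrays limit precision by their number. Median Cy5 signals were 196 to 244.

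The replicate is the number of the fish in the labels, which do not say which fish shared a slide. Fish with the same number hardly deviated together (correlations of 0.0049 to 0.067). The fit has no slide term, as in the methods, with a replicate block as an alternative. P-values in D, W/D and Wa measure the spread between fish of 1 family. Correlations used deviations from group means, permuted in Python 3.11.15.

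Members given in full were the 4 with the largest differences in each comparison, mRNAs with several spots, and the cell cycle category, of which 1 kept member enters the counts but is not reported here. The members and lists were chosen with earlier results of these data known. Alternatives were no background correction, median centring, the deposited ratios, other filters, the flag disregarded, a replicate block, each replicate left out, and rank correlation.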

Additional observations from a re-analysis of the deposited data

Results flagged for a closer look

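In 8 groups of fish (4.82% of those tested, a group being the fish of D, W/D, Wa or Ws for 1 spot), 1 fish stood far from the others of its group, where chance gives about 1 in 20. These were 5 groups of D fish, 2 of W/D, none of Wa and 1 of Ws. PLK1 was -0.94 in W/D fish 3, and 0.70 to 1.60 in the other W/D fish. Annexin A11 (ANXA11) was -0.54 in D fish 5, and -1.42 to -1.13 in the other D fish. LECT2 spot 3 was -0.064 in the same fish, and 1.14 to 1.45 in the others. IGFBP2 spot 1 was -0.64 in D fish 2, and 0.35 to 0.79 in the other D fish. PRC1 was -1.85 in D fish 3 and ependymin (EPD) spot 2 was -2.77 in D fish 6, both below background detection, against -0.98 to -0.50 and -1.53 to -0.85 in the other D fish. Tc1 (TC1) spot 3 was -1.03 in W/D fish 6, and 0.97 to 2.11 in the other W/D fish. A33 spot 2 was 0.79 in Ws fish 6, and 0.06 to 0.25 in the other Ws fish.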

How the results depend on the processing

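Of 4224 log2 fold changes of the 64 kept members under 11 alternatives, no called one changed direction. Those that moved by more than the spread between replicates numbered 14, 12 with the deposited ratios and 2 without background correction. Leaving out 1 replicate or adding a replicate block can hardly move a value that far, so this measure says little about those settings. Of 104 member calls, 77 to 94 were kept without 1 replicate. Without background correction 88 were kept, with median centring 94, with the deposited ratios 97 and with a replicate block 102. The number of called members fell most when signal was required on all 24 arrays, which left 26 members. Of these, 8 were called between D and Wa, 7 between D and Ws and 2 between W/D and Wa. There were 1 between W/D and Ws, 2 between W/D and D and 1 between Wa and Ws. Of all 4322 spots left, 92, 97, 18, 51, 18 and 19 were called in the same order. Leaving out each replicate in turn gave 27 to 32, 23 to 29, 8 to 11, 14 to 19, 4 to 7 and 2 to 15 in the same comparisons. With a replicate block there were 30, 25, 11, 20, 7 and 9 members, beside 318, 305, 83, 183, 71 and 76 of all kept spots. With that block, 4 same-description and 0 functional pairs passed. Same-description pairs numbered 2 by Spearman's rho, 11 with median centring, and 2 to 5 without 1 replicate. With median centring 1 functional pair passed, PLK1 and PRC1 (r = 0.56, adjusted permutation p = 0.0337), and with the deposited ratios 1, CDH1 and CLDN15 (r = 0.61, adjusted permutation p = 0.0497). The cause was not tested. Median centring moved the median of all spots to -0.18 for D against Wa, to 0.16 for W/D against Ws and against D, and to 0.17 for Wa against Ws. Alternatives for the spread between fish, chosen after seeing the data, gave median SDs of the members between 0.36 and 0.50 over the 4 groups.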
